A study of Mus musculus with 17 samples.

Results

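The regions described here are the stretches of the mouse genome at which a histone acetylation peak was called in all 8 acetylation libraries of the study. The 8 deposited peak lists were merged wherever peaks overlapped by 1 bp or more, and 928 of the 6179 merged regions (15%) held a peak of every list. Regions on unplaced sequence were left out, 65 of which were also in all 8 lists. The regions were selected on the peak calls, made from pileup and its q value in these same libraries, so peak presence, pileup and fold enrichment are given as a description and were not tested. Positions are in mouse build mm9, and regions are named by position only, since the annotation tables at hand are of another build.

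The study examined H3K9ac, H3K56ac and Sirt6 binding by ChIP-seq and 5-hydroxymethylcytosine by CMS-IP in mouse embryonic stem cells of the 129 strain, wild type (WT) or Sirt6 knockout (KO). The 8 acetylation libraries are H3K9ac and H3K56ac in untreated WT, untreated KO, retinoic acid (RA) treated WT and RA treated KO cells. Untreated cells were kept with LIF on irradiated fibroblast feeders, which were removed by plating. RA treated cells were grown without LIF and received RA, from a 0.01 M stock diluted 10000-fold, for 2 days, and were collected a day after it was withdrawn. Each group holds 1 library, and the labels do not state how many cell lines stand behind each genotype. No comparison between libraries below has a replicate check, and intervals cover counting error only.

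Acetylation of histone H3 at lysine 9 sits on the histone tail and is typical of active promoters, while lysine 56 lies in the globular core near the entry point of the DNA. Sirt6 is an NAD-dependent deacetylase of the sirtuin family that removes both acetyl marks from chromatin. Retinoic acid binds nuclear receptors and drives embryonic stem cells out of the pluripotent state.

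The regions were short and sharply placed. Their median length was 349 bp (quartiles 314 and 394 bp, range 232 to 2422 bp), and 911 of 928 held exactly 1 peak of each list. Of these 911, the 8 summits lay within 100 bp of each other in 832 (91.3%), with a median range of 51 bp. All but 3 regions had a base covered by a peak of every list. They were scattered: the median gap to the next such region was 1549095 bp, and 19 of 907 gaps were under 10000 bp. The longest were chr17:13743605-13746026 at 2422 bp, chr9:3000067-3001703 at 1637 bp and chr4:3016692-3018288 at 1597 bp.

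Several of them lay at the start of the assembled sequence. Of all 928, 17 began before base 3200000, on 9 chromosomes. By chromosome, 824 lay on autosomes, 99 on X and 5 on Y. The X share was 10.7% (95% Wilson interval 8.84 to 12.8%), against 7.24% (6.57 to 7.97%) of the regions in 1 to 7 lists, a difference of 3.43 percentage points (95% Newcombe interval 1.46 to 5.68). That excess was not particular to the full set of lists: 12.1% of the 338 regions in 7 lists lay on X, and the difference from these was -1.46 points (-5.78 to 2.28).

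The edge of the rule fell among peaks of middling strength. The weakest call that kept a region in had a −log10 q of 4.19, at chr6:136951272-136951827, followed by 4.96 at chr16:3116135-3116570 and 5.17 at chr16:3350665-3351689. The median of each region's lowest −log10 q was 19.9, and 133 regions had a lowest value under 10. Just outside were the 338 regions in 7 lists, with a median geometric mean fold enrichment of 11.9, against 16.8 for the 928. The list that these 338 lacked was most often untreated WT H3K9ac (123 regions) or untreated KO H3K56ac (121 regions), and each of the other 6 lists was the missing one for 1 to 37 regions. Of the 123 without an untreated WT H3K9ac peak, 23 overlapped a WT Sirt6 peak, and of the 121 without an untreated KO H3K56ac peak 0 did. One of the strongest of those left out was chr6:15554184-15554566, which has a Sirt6 peak of 5.04-fold. It was not called in untreated WT H3K9ac, stood at 3.72 in untreated WT H3K56ac, and ranged from 13.5 to 26.5 in the other 6 libraries (highest pileup of the list's peaks per 1000000 tags left after the peak caller's filter, called scaled pileup from here on).

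**Figure D1:**
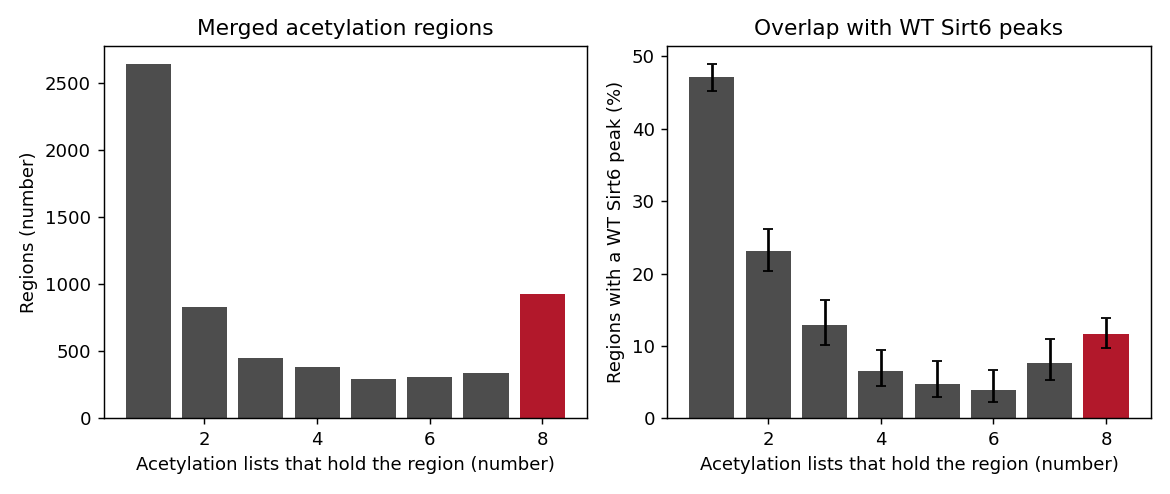
Number of merged acetylation regions (left, vertical axis) and the percentage of them that overlap a WT Sirt6 peak (right, vertical axis, with 95% Wilson intervals) by the number of acetylation lists that hold the region. The 928 regions in all 8 lists are in red, with a Sirt6 share of 11.6%, below the 47.1% of regions in 1 list and above the 3.86% of those in 6 lists.

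Binding of Sirt6 was measured in separate libraries that the choice of regions did not use. The WT Sirt6 list, called against whole-cell extract, held 14510 peaks, and the 2 lists of Sirt6 ChIP in KO cells held 0 peaks. A WT Sirt6 peak overlapped 108 of the 928 regions (11.6%, 9.73 to 13.9%), against 27.2% of all 6179 merged regions. The share did not move one way with the number of lists. It was 47.1% in regions of 1 list and 3.86% in regions of 6 lists, and it stood at 7.69% (5.3 to 11%) in regions of 7 lists. The difference from regions in 1 to 7 lists was -18.3 percentage points (-20.6 to -15.8), and from those in 4 to 7 lists it was 5.83 points (3.47 to 8.32). From regions of 7 lists alone it was 3.95 points (0.0997 to 7.21), and this interval reached 0 once the 25 regions near the pileup ceiling, described next, were left out (1.83 points, -1.94 to 5.01). With the same 25 left out, the difference from 4 to 7 lists was 3.71 points (1.48 to 6.09). Only the difference from 1 to 7 lists was planned.

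The 108 regions met 108 distinct Sirt6 peaks, 0.744% of the Sirt6 list. Their Sirt6 fold enrichment spread more widely than elsewhere, with a median of 6.95 (quartiles 3.79 and 12.2, range 2.25 to 28.9), against 8.08 (6.47 and 10.5) for the other 14402 Sirt6 peaks. Pooled over the 8 acetylation libraries, which were called without a control, regions with a Sirt6 peak had the stronger signal. Their median geometric mean fold enrichment was 23.5, against 16.1 for the 820 without one. The pooled value includes the KO libraries, and the gap was smallest in untreated WT H3K9ac, with median folds of 18.4 and 17.6. In untreated KO H3K9ac they were 28 and 16.1. In 4 groups of equal size by the geometric mean fold, from weakest to strongest, the Sirt6 share was 5.6%, 4.74%, 8.19% and 28% (22.6 to 34.1%). The highest Sirt6 folds were at chr2:47497940-47498356 (28.9), chr1:33464850-33465238 (28.3), chr12:50158044-50158468 (25.9), chr19:31798184-31798517 (24.2) and chrX:101818135-101818522 (23.3).

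The pileup, the number of extended fragments over a summit, has an upper limit in these lists. MACS2 kept 1 tag per position and strand, so a pileup cannot exceed 2 fragment lengths, and the highest pileup in each of the 8 lists was exactly that number, from 310 in untreated WT H3K9ac to 454 in RA treated KO H3K56ac. Of the 928 regions, 724 (78%) stayed under 25% of the ceiling in every library. Only 25 passed 50% of it in any library, and 12 did so in all 8, every one of them with a Sirt6 peak. Here the fold enrichment and the pileup part ways, since the peak caller took its background from the surroundings in the same library: 9 of these 12 had a geometric mean fold under 5. The 5 lowest folds of all (1.55 to 2.52) were neighbours near the start of chromosome 9, between 3000067 and 3038291. One of these, chr9:3034789-3035284, had a scaled pileup of 38.9, 50.8, 41.9 and 35.3 in H3K9ac of untreated WT, untreated KO, RA treated WT and RA treated KO cells. In H3K56ac it had 42.0, 59.8, 57.0 and 54.5 in the same order. These 5 share 1 broad Sirt6 peak of 38342 bp with a fold of 2.99, and are not separate observations of Sirt6.

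At the other end, the highest geometric mean fold was 37.2, at chr13:86453006-86453381, which has a Sirt6 peak of 4.70-fold. In the order untreated WT, untreated KO, RA treated WT and RA treated KO it had a scaled pileup of 15.5, 35.1, 29.0 and 26.9 in H3K9ac, and 17.6, 43.6, 43.9 and 37.0 in H3K56ac. The 2 untreated WT libraries gave the lowest value for each mark. The strongest region with no Sirt6 peak, chrX:107134713-107135076, had 18.3, 19.7, 19.9 and 16.6 in H3K9ac and 19.4, 15.9, 22.8 and 16.7 in H3K56ac, in the same order. Here no library stood apart. Of the 10 regions with the highest mean fold, 8 had a Sirt6 peak.

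**Figure D2:**
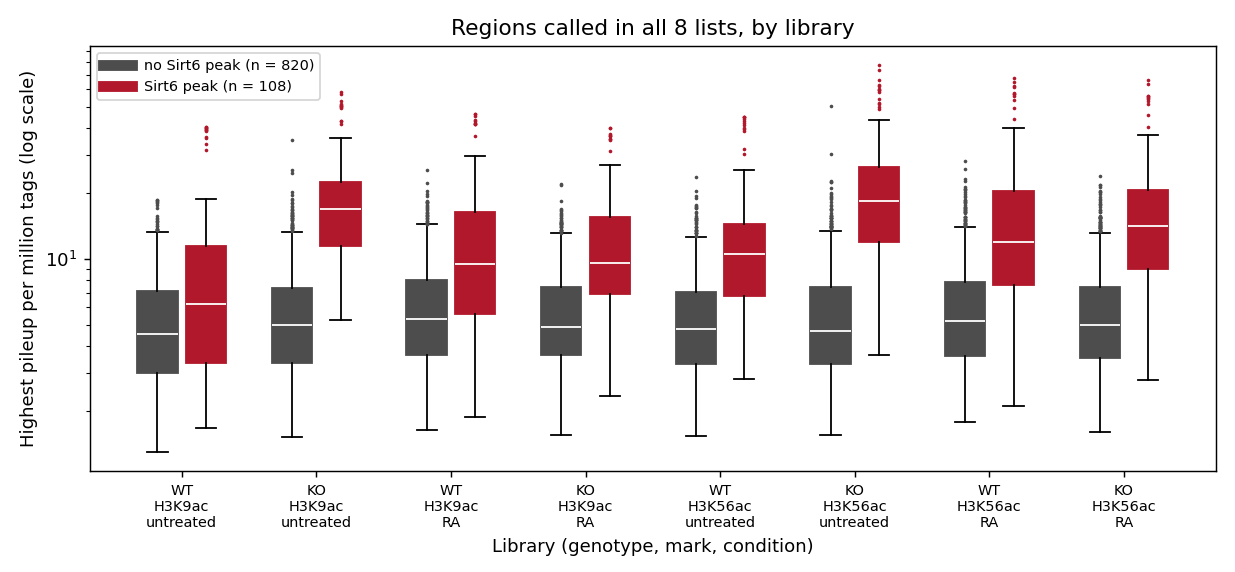
Highest pileup per 1000000 filtered tags (vertical, log scale) of the 928 regions in each of the 8 acetylation libraries (horizontal), split into 820 regions without (grey) and 108 with (red) a WT Sirt6 peak. Boxes span the quartiles with the median as a white line, whiskers reach the last point within 1.5 box lengths and dots are regions beyond. Grey medians lie between 4.53 and 5.28, and red medians run from 6.22 in untreated WT H3K9ac to 18.5 in untreated KO H3K56ac.

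The scaled pileup is the scale of all comparisons below. On it the median over all 928 regions ranged only from 4.66 (untreated WT H3K9ac) to 5.63 (RA treated WT H3K9ac). The libraries held 5782181 to 10250030 such tags. Regions without a Sirt6 peak had medians of 4.53, 4.99, 5.28 and 4.88 in H3K9ac of untreated WT, untreated KO, RA treated WT and RA treated KO cells, and of 4.75, 4.67, 5.21 and 4.97 in H3K56ac. Regions with a Sirt6 peak had medians of 6.22, 16.9, 9.44 and 9.61 in H3K9ac and of 10.5, 18.5, 12.0 and 14.1 in H3K56ac. By the median of all 108, the regions with a Sirt6 peak were thus the higher ones in every library. The gap was smallest in untreated WT and largest in untreated KO cells. In untreated WT H3K9ac it rested on the regions with a Sirt6 fold under 5, whose median was 11.5. At folds of 5 to 10 and of 10 or more the medians were 4.4 and 3.17, under the 4.53 without a Sirt6 peak.

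In untreated cells, loss of Sirt6 was compared with the wild type at each region. For H3K9ac, 560 of 928 regions (60.3%) were higher in the KO library, with a median KO over WT ratio of 1.14. Over all 1435 regions called in both lists, the 928 included, the share was 51.1%, and over the other 507 it was 34.1%. More than 1.5-fold higher in KO were 293 regions (31.6%, against 23.8% of all), and more than 1.5-fold lower were 116 (12.5%, against 19.7%). For H3K56ac, 517 regions (55.7%) were higher in KO, with a median ratio of 1.07. The share was 61.6% of all 1287 regions called in both lists and 76.9% of the other 359. There, 214 regions (23.1%, against 29% of all) were more than 1.5-fold higher and 132 (14.2%, against 12.4%) more than 1.5-fold lower. These overall directions depend on the scale: the share higher in KO was 39.7% for H3K9ac and 24.2% for H3K56ac by fold enrichment, and 37.7% and 35.5% with the fragment length also divided out. Tags and fragment length enter as 1 factor per library, so they leave a ratio between the medians of groups of regions as it is, but they move shares and 1.5-fold counts. With the fragment length also divided out, the shares of regions with a Sirt6 peak that were higher in KO, given next as 92.6% and 89.8%, became 74.1% and 75%. In these bulk libraries, a signal in fewer cells and a weaker signal per cell cannot be told apart.

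Regions with a Sirt6 peak differed most between the genotypes. Of these 108, 100 (92.6%) were higher in KO for H3K9ac, with a median ratio of 2.46 (quartiles 1.35 and 4.90). Of the 820 others, 460 (56.1%) were higher, with a median ratio of 1.07. The ratio of these medians was 2.3, and 90.7% of the regions with a Sirt6 peak lay above the median of the others. The contrast was smaller at high acetylation. In 4 groups of equal size by the level in the RA treated libraries, the H3K9ac medians at regions with a Sirt6 peak were 3.26, 3.49, 3.15 and, in the highest group, 1.61, against 0.936, 0.98, 1.12 and 1.26 at the others. From the lowest level to the highest, these groups hold 9, 8, 17 and 74 of the 108, so the medians below the highest group rest on few regions. For H3K56ac, 97 of the 108 (89.8%) were higher in KO with a median ratio of 1.63, against 420 of 820 (51.2%) and 1.01, a ratio of medians of 1.61. Both marks were more than 1.5-fold higher at 57 of the 108 (52.8%) and at 104 of the 820 (12.7%).

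Measured by fold enrichment, which compresses high peaks, the contrast kept its direction and was smaller. The median KO over WT ratios at regions with and without a Sirt6 peak were 1.20 and 0.882 for H3K9ac, and 0.943 and 0.786 for H3K56ac. For H3K56ac the direction itself turned, since 40.7% of the regions with a Sirt6 peak were higher in KO by that measure, yet 87% lay above the median of the others. Without the regions near the ceiling, the ratio of medians was 2.72 for H3K9ac and 1.64 for H3K56ac. The fragment length that the peak caller estimated was 155 bp (H3K9ac) and 175 bp (H3K56ac) in untreated WT and 198 to 227 bp in the other 6 libraries. It moves with the genotype in untreated cells, and its part in the overall ratios was not tested.

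**Figure D3:**
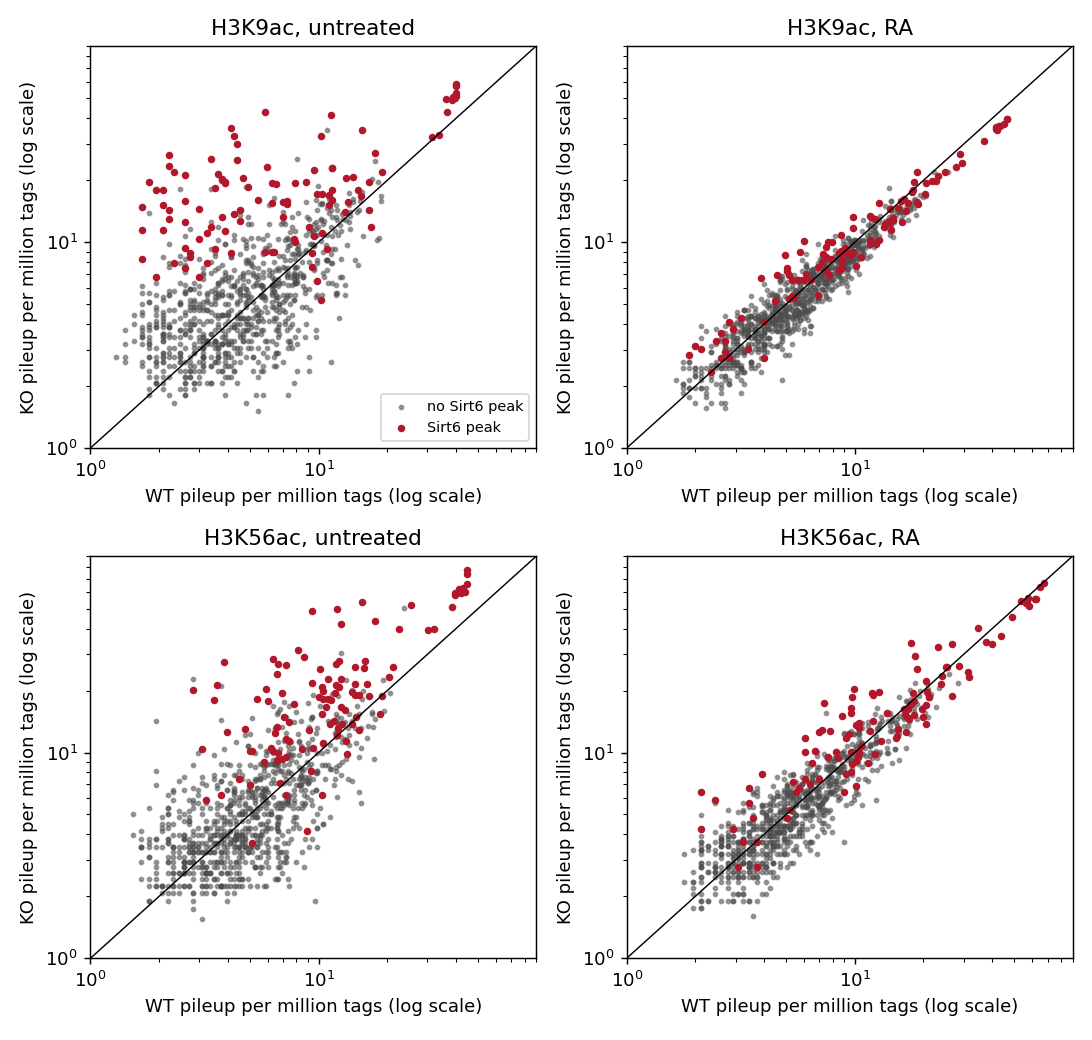
KO (vertical) against WT (horizontal) highest scaled pileup on log scales for the 928 regions, in 4 panels by mark and condition, with the line of equality. Regions with a WT Sirt6 peak (red) lie above the line in 100 of 108 cases for untreated H3K9ac and in 50 of 108 after RA; grey points are the 820 others.

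The ratio was also larger where the Sirt6 peak was stronger. For H3K9ac in untreated cells, the median KO over WT ratio was 1.31 at 45 regions with a Sirt6 fold under 5, 3.14 at 25 regions from 5 to 10, and 4.95 at 38 regions of 10 or more. By fold enrichment these medians were 0.973, 1.4 and 1.81, and with the fragment length divided out 0.957, 2.3 and 3.62, so the group under 5 was not higher in KO on either scale (15 of 45 higher by fold enrichment). All 38 of the last group were higher in KO, by 2.12-fold to 12.0-fold, and all 38 were also higher by fold enrichment. Their median H3K9ac level was a scaled pileup of 3.17 in untreated WT and 17.9 in untreated KO cells; at Sirt6 folds under 5 these levels were 11.5 and 17.2. The groups thus differed in their WT level far more than in their KO level. For H3K56ac the medians were 1.33, 1.88 and 1.96 in the same 3 groups, and by fold enrichment 0.915, 1.02 and 1.03. Of the regions with a Sirt6 fold under 5, 15 of 45 were near the pileup ceiling, and of the strongest group 3 of 38.

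The region with the highest Sirt6 fold, chr2:47497940-47498356, also had the highest H3K9ac ratio. It had a scaled pileup of 2.20 in untreated WT, 26.5 in untreated KO, 4.93 in RA treated WT and 8.68 in RA treated KO cells. In H3K56ac it had 8.09, 31.5, 12.7 and 19.7 in the same order. The KO library was the higher of the pair in all 4 comparisons, by 12.0-fold for untreated H3K9ac and by 1.76-fold for H3K9ac after RA. The next ratios were 10.8 at chr12:52269182-52269530 and 10.7 at chr11:71197835-71198260, both with a Sirt6 peak (10.2-fold and 13.8-fold). Their scaled pileup in untreated WT H3K9ac was 1.81 and 2.20, from 14 and 17 fragments. In that library the lowest value of any of the regions was 1.3, from 10 fragments, and the lower quartile was 2.98. The highest H3K9ac ratios thus rest on low untreated WT values of few fragments.

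High ratios were not limited to regions with a called Sirt6 peak. The highest H3K56ac ratio, 8.02, was at chrX:116367533-116367956, which has none. Its scaled H3K9ac pileup was 1.81 in untreated WT, 13.9 in untreated KO, 10.9 in RA treated WT and 12.8 in RA treated KO cells, and its H3K56ac pileup was 2.82, 22.7, 20.7 and 21.5. Only the 2 untreated WT libraries were low there. At chr6:105288638-105289023, also without a Sirt6 peak, H3K56ac had 1.93 in untreated WT and 12.9 to 15.1 in the other 3 libraries. High values in KO cells with and without RA were seen at chr17:69672565-69673024 (Sirt6 fold 13.1), with H3K56ac of 3.85, 27.5, 7.32 and 17.4.

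The 3 lowest KO over WT ratios of untreated cells were, for each mark, at regions without a Sirt6 peak. Since 88.4% of all the regions have none, this does not set the lowest ratios apart. For H3K9ac the lowest were 0.234 at chr16:56411793-56412082, 0.244 at chr15:39536358-39536629 and 0.26 at chrX:14759509-14759789. The first had a scaled H3K9ac pileup of 11.3 in untreated WT, 2.63 in untreated KO, 7.74 in RA treated WT and 5.27 in RA treated KO cells, and 8.60, 2.77, 4.07 and 4.24 in H3K56ac. The untreated WT library was the highest for both marks. For H3K56ac the lowest ratio was 0.198, at chr15:50837138-50837426.

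**Figure D4:**
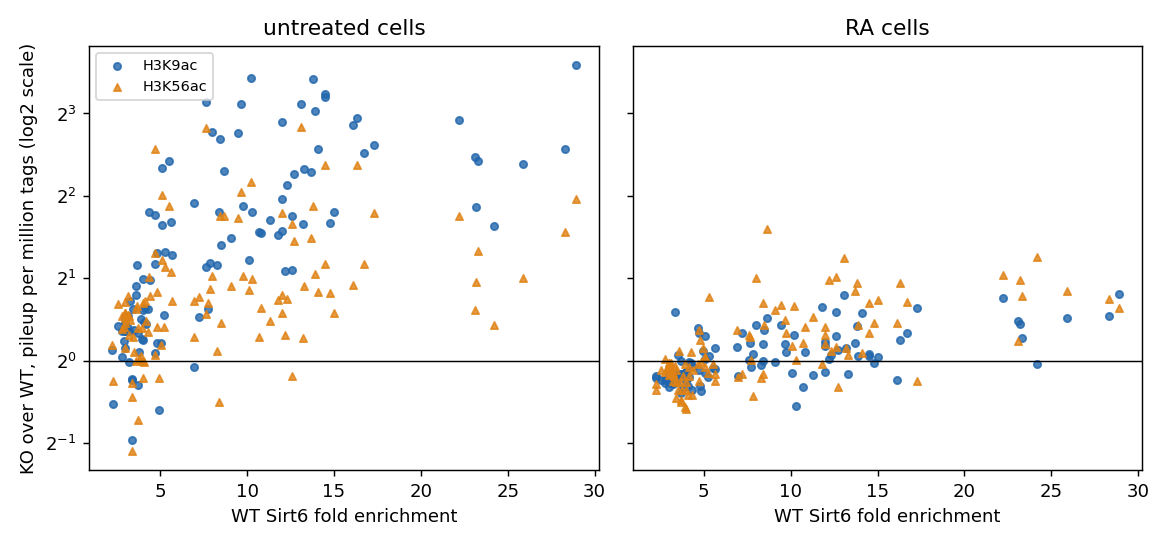
KO over WT ratio of scaled pileup (vertical, log2 scale) against WT Sirt6 fold enrichment (horizontal) at the 108 regions with a Sirt6 peak, for H3K9ac (circles) and H3K56ac (triangles), in untreated (left) and RA treated (right) cells. Ratios of untreated H3K9ac reach 12.0 at the highest Sirt6 fold, and after RA the H3K9ac ratios stay at or under 1.76.

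After RA the genotypes were much closer. For H3K9ac, 351 of 928 regions (37.8%, against 36.9% of all regions called in both lists) were higher in KO, with a median ratio of 0.939. Only 16 regions (1.72%, against 2.27%) were more than 1.5-fold higher and 18 (1.94%, against 6.35%) more than 1.5-fold lower. For H3K56ac, 411 regions (44.3%, against 44.6%) were higher in KO, with a median ratio of 0.968; 59 (6.36%, against 7.12%) were more than 1.5-fold higher and 68 (7.33%, against 8.28%) more than 1.5-fold lower. The SD of the log2 ratio over the regions was 0.28 for H3K9ac and 0.39 for H3K56ac after RA, against 0.88 and 0.73 in untreated cells. Over the other regions called in both lists it was 0.36 and 0.44 after RA, against 0.64 and 0.78 in untreated cells. The narrowing was thus not particular to the 928. The shares higher in KO are close to those of all regions, which include the 928. For H3K9ac, the share more than 1.5-fold lower was smaller than among all regions. The rule leaves out every region that lacks a call in some list, so this smaller share is not a separate result. By fold enrichment, H3K9ac turned to 53.3% higher in KO.

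Regions with a Sirt6 peak were nearly level after RA. For H3K9ac, 50 of 108 (46.3%) were higher in KO with a median ratio of 0.988, against 36.7% and 0.936 of the others, and for H3K56ac 56 of 108 (51.9%) with 1.01, against 43.3% and 0.963. The order by Sirt6 fold remained visible: the median H3K9ac ratio was 0.859, 1.06 and 1.15 at folds under 5, from 5 to 10, and of 10 or more, and for H3K56ac it was 0.903, 1.03 and 1.37. In the strongest Sirt6 group, 29 of 38 regions were higher in KO for H3K9ac and 35 of 38 for H3K56ac. The highest ratio after RA was 3.04, for H3K56ac at chrX:15170236-15170648 (Sirt6 fold 8.65). There WT had 2.12, near the lowest value of any of the regions in that library (1.79), and KO had 6.43. The lowest ratio was 0.409, for H3K56ac at chr3:139481370-139481775, without a Sirt6 peak, where WT had 8.95 and KO 3.66.

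RA treatment was next compared with no treatment within each genotype; each of these comparisons uses libraries of the genotype comparisons above. In WT cells, 619 of 928 regions (66.7%, against 51.5% of all regions called in both lists) had more H3K9ac after RA, with a median ratio of 1.16. More than 1.5-fold higher were 252 (27.2%, against 18.2% of all), and more than 1.5-fold lower 66 (7.11%, against 15.3%). In KO cells, 433 (46.7%, against 43.1%) had more, with a median ratio of 0.977; 57 (6.14%, against 6.22%) were more than 1.5-fold higher and 106 (11.4%, against 14.1%) more than 1.5-fold lower. For H3K56ac the counts were 555 (59.8%, against 59.2%; median 1.10) in WT and 502 (54.1%, against 48.5%; median 1.02) in KO cells. In WT, 203 (21.9%, against 21.5%) were more than 1.5-fold higher and 86 (9.27%, against 11.3%) more than 1.5-fold lower. In KO, 64 (6.9%, against 5.85%) were more than 1.5-fold higher and 75 (8.08%, against 11.3%) more than 1.5-fold lower. Here too the scale decides the overall direction: by fold enrichment 48.5% of regions had more H3K9ac after RA in WT cells and 73.4% in KO cells.

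At regions with a Sirt6 peak, the median RA ratio of scaled pileup was above 1 in WT and under 1 in KO cells. In WT cells 92 of 108 (85.2%) had more H3K9ac after RA, with a median ratio of 1.35, while in KO cells 10 of 108 (9.26%) did, with a median of 0.644. For H3K56ac it was 68 (63%, median 1.25) in WT and 18 (16.7%, median 0.814) in KO cells. By fold enrichment the medians were closer, at 1.03 in WT and 0.932 in KO for H3K9ac, and both under 1 for H3K56ac, at 0.908 and 0.955. For H3K56ac the WT value also rested on regions near the pileup ceiling: without them 47 of 86 (54.7%) were higher after RA, with a median of 1.09, or 0.923 with the fragment length divided out. On scaled pileup, H3K9ac was higher after RA in WT and lower after RA in KO at 85 of the 108 (78.7%), against 270 of the 820 others (32.9%). For H3K56ac the counts were 54 (50%) and 187 (22.8%). An example is chr14:29433990-29434337 (Sirt6 fold 10.3), where H3K9ac was 3.37 in untreated and 3.99 in RA treated WT cells, and 11.8 and 2.73 in KO cells. The opposite extreme in KO cells was chr11:25460596-25460952, without a Sirt6 peak, where H3K9ac was 1.52 untreated and 3.71 after RA. This untreated value, from 11 fragments, was the lowest of any of the regions in that library.

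The largest RA ratios in WT cells were at the regions already noted for low untreated WT values. At chrX:116367533-116367956 the ratio was 6.02 for H3K9ac and 7.32 for H3K56ac, and at chr6:105288638-105289023 it was 7.86 for H3K56ac. At chr5:40542527-40542829, without a Sirt6 peak, H3K9ac was 2.46 in untreated WT and 12.1 in RA treated WT cells (ratio 4.91), against 18.1 and 11.8 in KO cells. The lowest WT ratio for H3K9ac was 0.38, at chr7:104291596-104291862, with 8.03 untreated and 3.05 after RA.

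Both marks ranked the regions alike within a genotype and condition. Across the 928 regions, Pearson's r of log2 scaled pileup between H3K9ac and H3K56ac was 0.93 in untreated KO, 0.85 in untreated WT, 0.91 in RA treated WT and 0.88 in RA treated KO cells. Between genotypes it was 0.95 for H3K9ac and 0.91 for H3K56ac after RA, and 0.56 and 0.72 in untreated cells. The lowest of all was 0.48, between untreated WT H3K9ac and untreated KO H3K56ac. Untreated KO H3K9ac had a higher r with H3K56ac of RA treated KO cells (0.90) than with untreated WT H3K9ac. Over the 820 regions without a Sirt6 peak, r between the untreated genotypes was 0.58 and 0.63. Without the regions near the pileup ceiling it was 0.48 and 0.64, and the lowest r of all, for the same pair, was 0.38. These are descriptions across regions, which share each library's depth and fragment length and were chosen because all of them called a peak there.

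**Figure D5:**
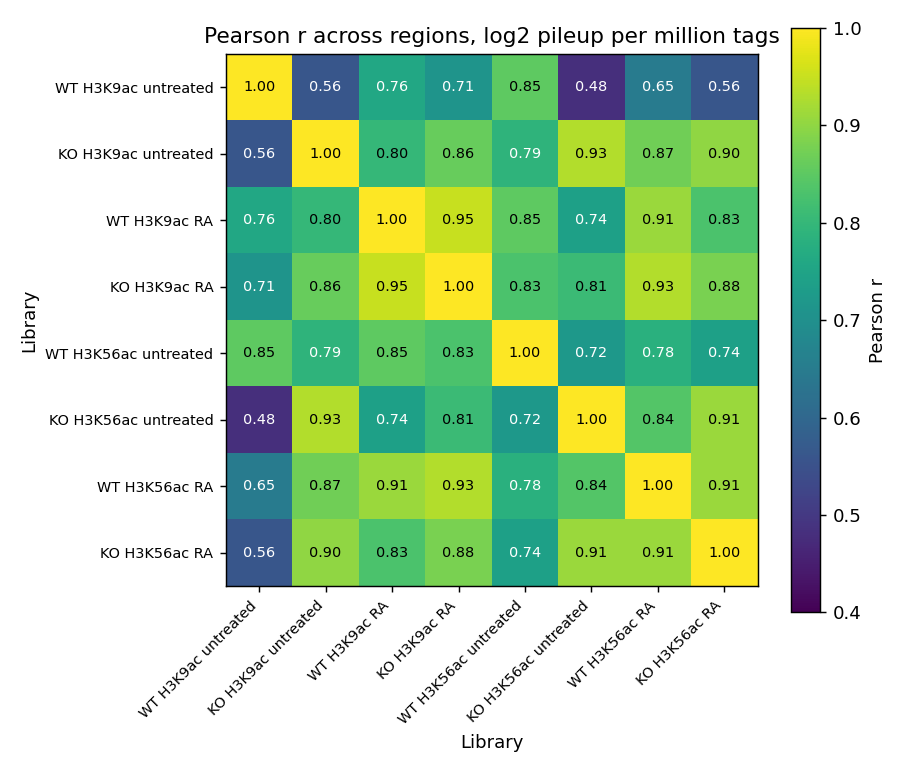
Pearson's r across the 928 regions between each pair of the 8 acetylation libraries (both axes), on log2 highest scaled pileup; colour and number give r. Untreated WT H3K9ac has its highest r with untreated WT H3K56ac (0.85) and its lowest with untreated KO H3K56ac (0.48).

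Set directly against each other, the marks differed little over all regions. H3K9ac exceeded H3K56ac in 41.2% of regions in untreated WT (against 53.9% of all regions called in both lists), 51.3% in untreated KO (against 40.5%), 46.2% in RA treated WT (against 42.2%) and 41.9% in RA treated KO cells (against 37.4%). Median ratios were 0.934, 1.00, 0.969 and 0.942. Regions with a Sirt6 peak leaned to H3K56ac: H3K9ac was the higher mark at 12.0%, 33.3%, 12.0% and 10.2% of the 108, with median ratios of 0.684, 0.921, 0.779 and 0.72. By fold enrichment H3K9ac was the higher mark at 24.1%, 81.5%, 54.6% and 64.8% of these 108, and at 51%, 77.9%, 77.2% and 82.4% of all 928, so which mark was higher depends on the scale in both sets. The marks come from separate libraries, so on no scale do these ratios measure which acetylation was the more abundant.

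CMS-IP enriches DNA fragments with 5-hydroxymethylcytosine after bisulfite conversion, and its input is the same DNA before the antibody step. The authors' deposited table lists 3780 windows of 500 bp, all chosen for a difference between KO and WT. Few of the 928 regions met one: 4 overlapped a listed window (0.431%, 0.168 to 1.1%), against 0.518% of all merged regions, and 8 lay within 1000 bp of one (0.862%, 0.437 to 1.69%), against 0.906%. Both shares are near the background. The 8 regions met 11 windows, of which 10 were lower in KO, against 1552 of the other 3769 listed windows. Of these 10, 5 lay in a single stretch of X, between 166426501 and 166433000, and are not separate observations.

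The 4 overlapping regions were chr14:97249935-97250301, chr19:31798184-31798517, chrX:166427269-166427690 and chrX:166432494-166433156. At chr14:97249935-97250301 IP reads in the window numbered 51 (KO) and 126 (WT), and input reads 7 and 27. At chr19:31798184-31798517, the one of the 4 with a Sirt6 peak, there were 13 and 45 IP reads and 5 and 7 input reads. On X, the window at chrX:166427269-166427690 held 124 and 217 IP reads and 67 and 75 input reads. The 2 windows at chrX:166432494-166433156 held 53 and 176, and 30 and 76, IP reads, with 51 and 67, and 98 and 125, input reads; the second had more input than IP reads in both genotypes. In the authors' deposited table, the log2 fold change of IP between KO and WT was -1.48 (adjusted p = 9.55e-06) for the first of these and -1.09 (adjusted p = 1) for the second. The other 3 overlapping windows also had an adjusted p of 1 in the authors' deposited table. The 2 regions on X are near neighbours.

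Input reads in these windows were fewer in KO. Over the 11 windows within 1000 bp, input summed to 374 reads in KO and 499 in WT, a depth-scaled ratio of 0.521 (95% exact interval 0.454 to 0.597). The median input was 2.17 RPKM in KO and 4.81 in WT, against 1.59 and 2.05 over the other 3769 windows. Since nearly all were windows lower in KO, they were set beside the other windows of that direction. The 10 lower windows had an input ratio of 0.483 (0.417 to 0.558), and the other 1552 lower windows 0.548 (0.54 to 0.557), so these windows did not stand apart. On autosomes alone the 11 windows became 6, with a ratio of 0.632, but these include the 1 window higher in KO. The 5 lower windows on autosomes had a ratio of 0.447 (0.3 to 0.659), and the 5 on X 0.489 (0.418 to 0.573). Those on X held 274 of the 319 KO input reads of the 10 lower windows. Input moves with the IP difference here, and its part in that difference was not tested.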

How the data were processed

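The members and lists were chosen with earlier results of these data known. The submitters' processing notes name BWA 0.5.9, Picard and MACS2 2.0.10 for ChIP-seq, edgeR for CMS-IP, and build mm9. The sources used here do not name the CMS-IP aligner. The authors called each acetylation list at a q limit of 0.01 with no control, and the WT Sirt6 list against whole-cell extract, per the file headers. The deposited lists give the pileup signal at each summit, −log10 p and −log10 q, and fold enrichment, all from MACS2. Because acetylation backgrounds came from the same library, a peak's own reads lower its fold. The authors' CMS-IP table gives read counts and RPKM per library, log2 fold changes, log2 abundance and p-values, per the column names; adjusted p-values there are the authors'. All of its columns of per-sample values were used.

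In each region the highest pileup of each list's peaks was divided by the library's filtered tags and multiplied by 1000000, read per the file headers. Ratios were taken between libraries, and described with no interval, since regions are not replicates of a condition. Shares of regions that overlap Sirt6 peaks or CMS-IP windows or lie on X have Wilson, and their differences Newcombe, 95% intervals; depth-scaled ratios of summed input reads have exact binomial intervals. These intervals and the 1 library a group allow no test between conditions. The background share beside each count covers all merged regions called in both lists compared. Named regions are the extremes of mean fold (10 highest, 5 lowest), of each ratio (3 at either end for genotype, 2 for RA), of Sirt6 fold and length (5 each), those at CMS-IP windows, and those at the edge of the rule. Merging was tested on simulated intervals. RefSeq tables of another build were not used, so no sequences or gene names are given. Scripts ran under Python 3.11.15 (scipy 1.17.1, pandas 2.3.3, numpy 2.4.6, matplotlib 3.10.9). Alternatives covered the measure, the scaling, the q limit, the overlap rule and each list left out; those that leave out each list, leave out regions near the pileup ceiling, limit the Sirt6 peaks to a −log10 q of at least 10 or concern the 108 regions with a Sirt6 peak were chosen after seeing the data.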

Additional observations from a re-analysis of the deposited data

Results flagged for a closer look

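At the 108 regions with a Sirt6 peak, the RA over untreated ratio of scaled pileup had medians on opposite sides of 1 in the genotypes. For H3K9ac the median was 1.35 in WT and 0.644 in KO cells, and for H3K56ac it was 1.25 in WT and 0.814 in KO cells. The difference was not tested, since each median compares 1 library with 1 library. The same libraries give the genotype ratios, whose H3K9ac median at these regions was 2.46 in untreated cells and 0.988 after RA. The RA ratios are therefore not a separate observation from the genotype ratios. With the fragment length also divided out the medians were 1.06 and 0.669 for H3K9ac and 1.05 and 0.803 for H3K56ac. By fold enrichment they were 1.03 and 0.932 for H3K9ac, and 0.908 and 0.955 for H3K56ac, so the opposite directions for H3K56ac did not hold on that measure. Without the regions near the pileup ceiling, the H3K56ac median in WT was 1.09, or 0.923 with the fragment length divided out.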

How the results depend on the processing

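Of 140 alternative values for 19 results, 95 stayed within their limits, 20 moved and 25 turned direction. The limits were 1.5-fold for the number of regions and the main value's 95% interval for shares and the input ratio. These intervals count regions or reads, not replicates. A share whose main interval held an even split could only be counted as moved. One such share, RA H3K9ac at regions with a Sirt6 peak, went from 46.3% to 88.9% without scaling. No paired analysis was possible because each group holds 1 library. Leaving out each list in turn gave 929 to 1051 regions, and a Sirt6 share of 10.3 to 12.5%. Without the regions near the ceiling the Sirt6 share was 9.52%. The CMS-IP input ratio was 0.632 on autosomes, with the 1 window higher in KO included, and 0.601 within 10000 bp, with 6 such windows included. In the following, genotype shares (higher in KO) are in the order untreated H3K9ac, untreated H3K56ac, RA H3K9ac, RA H3K56ac; RA shares in the order WT and KO H3K9ac, WT and KO H3K56ac; and mark shares (higher in H3K9ac) in the order untreated WT, untreated KO, RA WT, RA KO. By fold enrichment, genotype shares were 39.7, 24.2 and 53.3% in the first 3 comparisons, RA shares 48.5, 73.4, 30.8 and 65%, and mark shares 51, 77.9, 77.2 and 82.4%. With tags and fragment length divided out, genotype shares were 37.7, 35.5, 32.9 and 31.4%, RA shares 39.9, 52.3 and 43.2% in the first 3, and mark shares 58.7, 59.6, 52.3 and 57.2%. Without scaling, genotype shares were 53.7, 29.3, 75.5 and 59.7%, RA shares 74.8, 86.9, 36.1 and 76.6%, and mark shares 36.9, 80.3, 86.5 and 87.3%. At the 108 regions with a Sirt6 peak, genotype shares were 69.4, 40.7 and 59.3% in the first 3 comparisons by fold enrichment, 74.1 and 75% in the untreated ones with fragment length divided out, and 68.5, 88.9 and 71.3% in the last 3 without scaling. The untreated H3K56ac share turned by fold enrichment, yet 87% of these regions still lay above the median of the others. Which scale is right was not tested. With 1 library a group and a capped pileup, differences among the 25 regions near the ceiling are compressed.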
